A study of Mus musculus with 16 samples.

Results

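The promoters of the REV-ERB genes Nr1d1 and Nr1d2 and of their neighbours Thra, Med24 and Thrb were followed through Promoter Capture Hi-C (P-CHi-C) of mouse liver. A promoter here is the captured restriction fragment, called a bait, on which the gene starts on mouse genome build mm9. The 5 promoters were chosen by gene name, as Nr1d1, its paralogue and the genes alongside, and not by their values in the lists. Earlier results of these data were known when they were chosen. They took part in 142 of the 247177 distinct pairs of fragments over all timepoints, and they are 5 of 18165 baits. The lists of ZT0 and ZT6 held 109 of these pairs each, the ZT12 list 107 and the ZT18 list 104.

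P-CHi-C joins fragments of chromatin that lie close together in the nucleus and enriches for those holding a gene promoter. It was applied to livers of wild type C57BL/6 male mice, 8 weeks old, fed ad libitum under a cycle of 12 h light and 12 h dark. All groups shared this strain, sex, age and feeding, and differed only in the time of sampling, ZT0, ZT6, ZT12 or ZT18, where zeitgeber time (ZT) counts hours from the onset of light. Livers were pooled by 2, with 3 such pools per timepoint, and with pool A sequenced on 2 lanes there were 16 samples. Pairs were called after the pools had been merged, so each timepoint has 1 list, no difference between timepoints has a replicate check, and no test was made. The lists hold scores and no expression values, so the liver label was not checked against marker genes.

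A pair was listed where its CHiCAGO score reached 5. This score rises as the reads of a pair exceed what its distance and technical noise would give, and a pair absent from a list may lie just under the minimum. One point about the timepoints bears on all that follows. The lists were assigned to timepoints by the sample labels, whereas the study's own summary of its libraries shows the total of the ZT6 list under ZT18, that of the ZT12 list under ZT6 and that of the ZT18 list under ZT12. The labels are followed below, and this second order is called the summary order. It is given where a result leads with a time of day, and every other value converts by the same rule. In the labelled lists the clock gene Arntl had 3, 0, 0 and 2 contacts from ZT0 to ZT18. The study's text also gives Arntl 3 contacts at ZT0, 2 at ZT18 and none at ZT6 or ZT12, and Nr1d1 more contacts around ZT6. The summary order would place the 2 Arntl contacts at ZT12, so for these genes the study's text goes with the labels.

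REV-ERBα (Nr1d1) and REV-ERBβ (Nr1d2) are nuclear receptors that bind haem and repress transcription through the corepressor NCoR. They form a feedback loop of the circadian clock by repressing Arntl, and in liver they also restrain genes of lipid metabolism. Their own genes are activated by the clock factors CLOCK and BMAL1 at short DNA motifs called E-boxes. Thra and Thrb encode the thyroid hormone receptors α and β, of which β prevails in liver, and Med24 encodes a subunit of Mediator, the complex that links transcription factors to RNA polymerase II. In both REV-ERB loci a thyroid hormone receptor gene lies alongside, a paralogous arrangement on chromosomes 11 and 14.

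Both REV-ERB baits held several copies of the E-box. The Nr1d1 bait (chr11:98633682-98636939, 3258 bp) held 4 copies of the E-box CACGTG and 1 copy of the D-box TTATGTAA, the motif of the clock-output factors DBP, TEF and HLF and of the repressor NFIL3. Both motifs were searched for on both strands, and neither overlaps the other. The windows below are shown because they carry all of these copies. They are from mm9, plus strand, 5′ to 3′, with the motifs in capitals, and they lie within introns of Nr1d1 and Nr1d2, at chr11:98634337-98634374, chr11:98635158-98635210, chr11:98635379-98635490 and chr14:19071024-19071209.
Nr1d1 window 1: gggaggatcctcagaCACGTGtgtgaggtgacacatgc
Nr1d1 window 2: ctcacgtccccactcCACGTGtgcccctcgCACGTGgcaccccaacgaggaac
Nr1d1 window 3: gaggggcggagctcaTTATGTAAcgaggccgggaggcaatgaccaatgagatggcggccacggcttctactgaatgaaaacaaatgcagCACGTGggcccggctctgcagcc
Nr1d2 window: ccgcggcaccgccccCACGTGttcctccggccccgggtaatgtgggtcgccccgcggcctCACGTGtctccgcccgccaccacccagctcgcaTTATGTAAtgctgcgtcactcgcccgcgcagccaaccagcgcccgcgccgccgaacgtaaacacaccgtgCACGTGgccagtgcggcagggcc

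In Nr1d1 the E-boxes lay 1174, 1454, 1469 and 2290 bp downstream of the gene start and the D-box 1246 bp downstream. Of 1322 baits within 10% of the length of the Nr1d1 bait, 37.8% held an E-box but 0.908% held 4 or more, and 13.2% held a D-box. In Nr1d2 the 3 E-boxes lay 449, 552 and 597 bp downstream of the start, with the D-box between them at 517 bp. Of 1696 baits of like length, 5.72% held 3 or more E-boxes and 17.4% a D-box. The Thra bait held 1 E-box, where 30.3% of baits of like length held at least 1, and the Thrb bait held 0. The much longer Med24 bait held more E-boxes than either REV-ERB bait, 5, and 1 D-box. Of 621 baits of its length, 16.9% held as many E-boxes and 43.8% a D-box. The copies lie beyond the usual promoter window: in the RefSeq promoters of build GRCm38.p6 (windows of 300 bases at the start), Nr1d1 and Nr1d2 held 0 E-boxes, against 7.15% of 32851 such windows with at least 1. A match is a run of letters and no measurement of binding.

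The 5 promoters differed in how many contacts they had and in how steady these were. Over all timepoints Nr1d1 and Thra each had 15 contacts, Med24 had 13, Nr1d2 had 3 and Thrb had 99, against a median of 9 per bait. More contacts than Nr1d1 were held by 6102 baits, more than Nr1d2 by 13824 and more than Thrb by 110. Thrb was thus among the most connected baits of the lists. Nr1d2 had fewer contacts than most baits, though 16.8% of baits had fewer still.

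**Figure D1:**
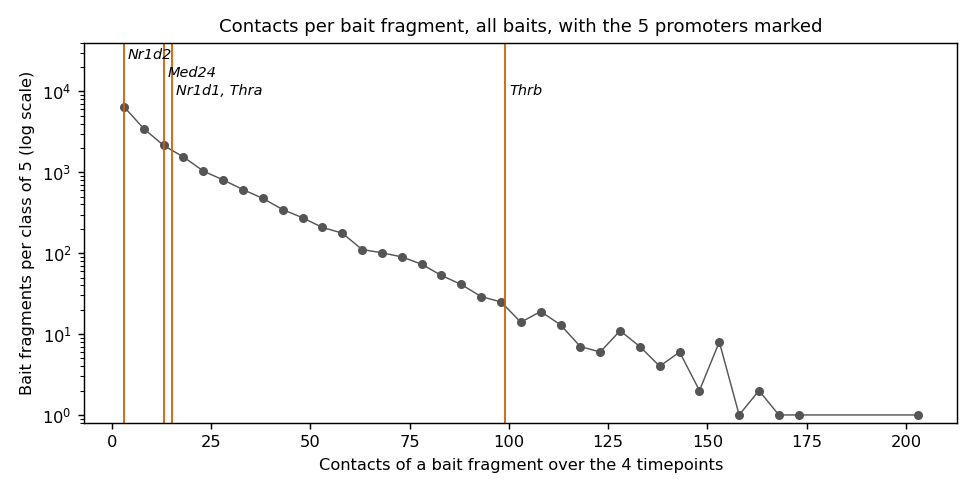
Number of bait fragments (log axis) in classes of 5 contacts, counted over the 4 timepoints, with the 5 promoters marked by vertical lines. Nr1d2, Med24, Nr1d1 and Thra sit among the common classes at 3, 13 and 15 contacts, whereas Thrb, at 99, lies in the sparse upper tail.

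At single timepoints, ZT0, ZT6, ZT12 and ZT18 in turn, Nr1d1 had 6, 10, 9 and 8 contacts, Nr1d2 had 2, 3, 1 and 1, and Thra had 8, 8, 6 and 10. Thrb had 85, 83, 83 and 78, and Med24 had 11, 7, 11 and 10. The timepoint with most contacts thus differed from gene to gene: ZT6 for Nr1d1 and Nr1d2 (ZT18 in the summary order), ZT18 for Thra (ZT12), ZT0 for Thrb in either order, and ZT0 and ZT12 together for Med24 (ZT0 and ZT6). These places did not hold at a higher minimum. At a score of at least 7, Nr1d1 had as many contacts at ZT0 and ZT12 as at ZT6, Nr1d2 had most at ZT18, and Thra and Med24 had most at ZT12, and at a score of at least 10 Nr1d1 had most at ZT12, Thrb at ZT6 and Med24 at ZT18. At the listed minimum, ZT6 was the timepoint with strictly most contacts for 21.7% of all baits, so this place is no rarity for Nr1d1, and the 3 contacts of Nr1d2 are too few to rank its timepoints. Between its richest and poorest timepoint Nr1d1 moved by 4 contacts. Of the 338 baits with 15 contacts, 69.2% moved by at least as much, so the spread of Nr1d1 over the day was ordinary for a bait of its size.

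**Figure D2:**
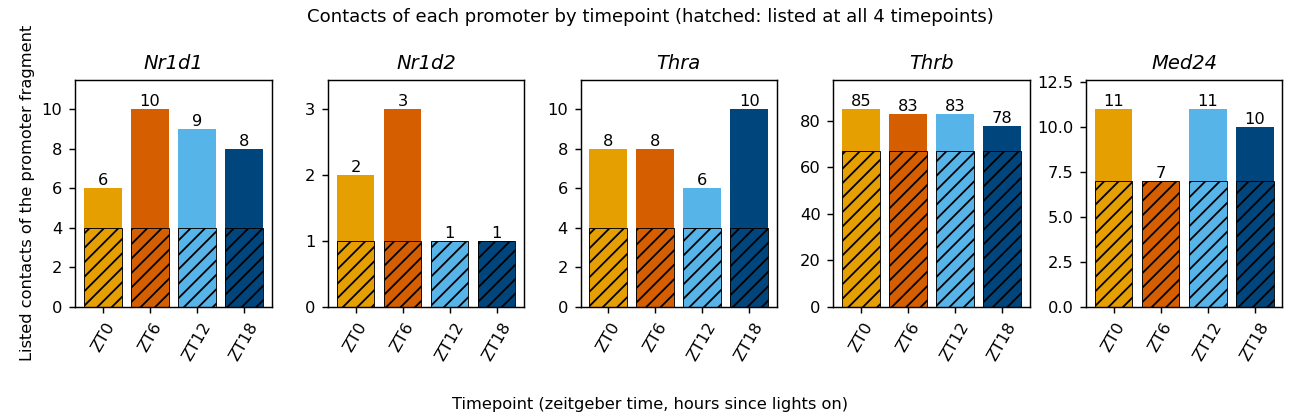
Bars give the listed contacts of each promoter at ZT0, ZT6, ZT12 and ZT18 (1 merged list per timepoint, no error bars), with a separate axis from 0 for each gene, and the hatched part marks contacts listed at all 4 timepoints. The hatched part fills most of each Thrb bar, 67 of 78 to 85, and for Nr1d1 it is 4 of 6, 10, 9 and 8 contacts.

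The share of contacts listed at all timepoints was highest for Thrb. Of all pairs in the lists, 32.5% were listed at all timepoints, and such pairs or contacts are called steady below. The share was 67.7% for Thrb (67 of 99, 95% Wilson interval 58.0 to 76.1), 53.8% for Med24 (7 of 13, 29.1 to 76.8), 26.7% for Nr1d1 and for Thra (4 of 15 each, 10.9 to 52.0) and 33.3% for Nr1d2 (1 of 3, 6.15 to 79.2). Only the Thrb interval lies clear of the share over all pairs, and the Med24 interval overlaps those of Nr1d1 and Thra. The order below Thrb also turns with the rule for a shared fragment: when another end within 10 kb was accepted as the same contact, the share was 93.9% for Thrb, 86.7% for Nr1d1, 80% for Thra, 53.8% for Med24 and 33.3% for Nr1d2. The share over all pairs under this rule was not computed, so these values have no baseline. They also depend on how closely the contacts of a bait are packed. The Wilson intervals cover counting error only, and the contacts of 1 bait depend on one another. Contacts seen at 1 timepoint only made up 7 of 15 for Nr1d1, 8 of 15 for Thra, 1 of 3 for Nr1d2, 15 of 99 for Thrb and 3 of 13 for Med24, against 35.2% over all pairs.

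Turning to Nr1d1 itself (ENSMUSG00000020889, minus strand, gene chr11:98629246-98636647), its contacts pointed almost wholly one way. Of its 15 contacts, 14 lay on the side toward which the gene is read, over Thra and Med24, and 1 on the other. Over all baits whose gene starts share a strand, 52.5% of 240008 contacts lay on the side of the gene body. Among 3667 such baits with 10 to 20 contacts, 22.8% had at least 90% of them on the gene-body side, so the one-sidedness of Nr1d1 is shared by many promoters. None of the contacts lay within Nr1d1 itself, which says little. The gene lies wholly on its bait and the adjoining fragment (chr11:98621163-98633681), so no fragment farther off could be listed inside it. Their median distance was 57.3 kb (26.8 to 326.2), shorter than the 162 kb over all pairs.

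The strongest contact of Nr1d1 joined it to a fragment inside Med24, 63.9 kb away (chr11:98570181-98572739, 2559 bp). This fragment overlaps exons of Med24 and holds the start of SNORD124, a small nucleolar RNA gene, for which it was itself a bait. Its score with Nr1d1 was 15.5 (ZT0), 14.22 (ZT6), 18.84 (ZT12) and 11.42 (ZT18). It was listed at every timepoint, highest at ZT12 (ZT6 in the summary order) and lowest at ZT18 (ZT12). The highest score stood at percentile 95.9 of its list and at percentile 95.5 of pairs at a like distance. Highest over lowest score was 1.65, against a median of 1.44 and a 95th percentile of 2.07 over pairs listed at all timepoints, so this swing is within what steady pairs show.

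Seen from the other end, the Med24 fragment was a broad partner. It had 36 contacts over the day, namely 26, 25, 25 and 27 from ZT0 to ZT18, and 19 of them were listed throughout. Nr1d1 ranked 2nd, 1st, 1st and 4th among its scores in the same order of timepoints. The fragment holds 1 match to the motif of CTCF, a factor that anchors chromatin loops, on the minus strand at chr11:98571908-98571919, within an intron of Med24. It is shown here, from mm9, plus strand, with the match in capitals, because it lies in the partner that Nr1d1 contacted most strongly (chr11:98571883-98571944).
Med24 fragment, CTCF motif: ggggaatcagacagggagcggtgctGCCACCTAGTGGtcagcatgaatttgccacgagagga
Of 997 baits of like length, 2.91% held such a match. Among contacted fragments, a match was found in 2 of 15 for Nr1d1, 0 of 15 for Thra, 2 of 13 for Med24, 0 of 3 for Nr1d2 and 3 of 99 for Thrb, against 3.85% of the 129886 listed fragments. These counts are small, and binding of CTCF was not measured in the lists.

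Of the 4 contacts that Nr1d1 kept at all timepoints, 3 were with baits. Beside the Med24 fragment, these were the promoter of Csf3, which encodes the granulocyte growth factor G-CSF, and that of Thra. The Csf3 promoter (chr11:98562145-98562918, 72.8 kb away) had scores of 9.99 (ZT0), 8.83 (ZT6), 11.76 (ZT12) and 8.38 (ZT18). The Thra promoter (34.1 kb away) had 8.06, 6.49, 8.2 and 6.11. Both had their highest score at ZT12 (ZT6 in the summary order) and their lowest at ZT18 (ZT12).

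The fourth steady contact was also lowest at ZT18 (ZT12 in the summary order), but it was not highest at ZT12. It was the fragment next to the Thra bait (chr11:98602416-98603696), which is no bait but holds the starts of 5 further Thra transcripts of 10 annotated. Its scores with Nr1d1 were 9.22 (ZT0), 8.82 (ZT6), 5.62 (ZT12) and 5.57 (ZT18), which in the summary order reads 9.22, 5.62, 5.57 and 8.82. The adjoining Thra bait was highest at ZT12 (8.2), where this fragment was near its lowest, and low at ZT6 (6.49), where this fragment was high. At ZT0 the Thra bait (8.06) was close to its highest as well, and at ZT18 both were lowest. These neighbouring fragments of 1 gene thus parted at ZT6 and ZT12 only. In all, 3 of the 4 steady contacts had their highest score at ZT12, as did 25.6% of all steady pairs, and with 4 contacts this share carries little weight.

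The contacts of Nr1d1 that were not listed at all timepoints were weaker, and none of them reached a score of 10. Over all contacts, 2 of 15 reached 10 at any timepoint, against 21.5% of all pairs. The Med24 promoter itself (44.6 kb away) was listed at ZT0 (5.59), ZT12 (5.82) and ZT18 (5.76), just above the minimum each time, and not at ZT6. An exonic fragment of Thra (chr11:98605676-98611310) was listed at ZT0 (6.48), ZT6 (5.33) and ZT18 (6.32). An exonic fragment of Med24 (chr11:98573874-98577027) was listed at ZT12 (7.29) and ZT18 (5.5), and the intergenic fragment beside Csf3 (chr11:98559869-98562144) at ZT12 (5.19) and ZT18 (5.66).

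The surplus of Nr1d1 contacts at ZT6 came from fragments seen at no other timepoint. Of the 10 contacts at ZT6, 5 were listed only there, against 15.9% of all pairs of that list (in the summary order these are ZT18 pairs). Their scores ran from 5.87 to 7.17. They were the promoter of Grb7, an adaptor of growth factor receptors (326.2 kb away, score 6.75), an exon of the proteasome gene Psmd3 (7.17), a pair of adjoining Med24 exon fragments (5.87 and 6.82) and the fragment between Med24 and Thra (6.07). By contrast all 6 contacts at ZT0 were also listed at ZT18, and ZT0 and ZT18 had no contact of their own. ZT12 had 2 of its own, a Csf3 exon (6.2) and the start of Gm12359 within Casc3 (5.89, 37.0 kb away), which was the single contact on the other side of Nr1d1. With the tolerance of 10 kb, 86.7% of the Nr1d1 contacts were listed at all timepoints, so most of those seen at 1 timepoint lay close to fragments listed at the others.

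**Figure D3:**
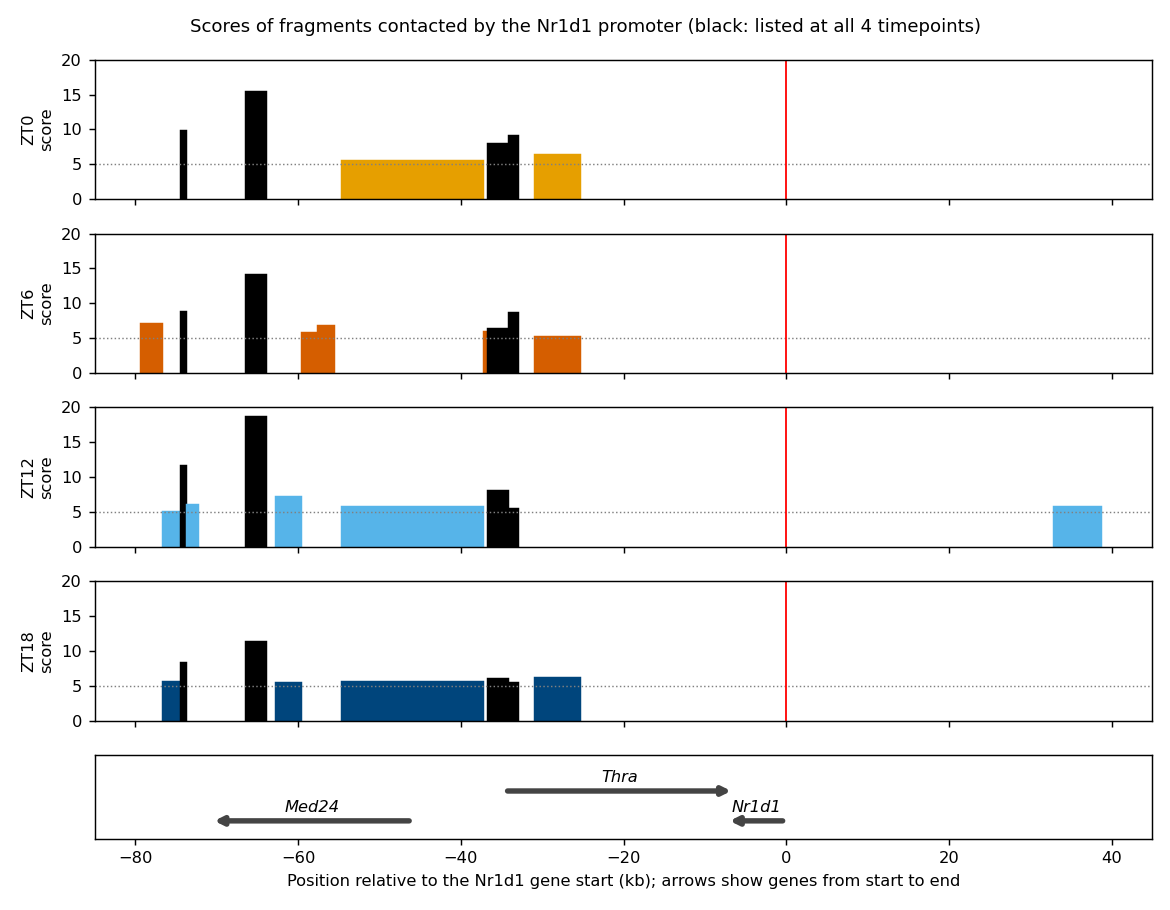
CHiCAGO score (vertical axis, one panel per timepoint) of each fragment contacted by the Nr1d1 promoter against position relative to the Nr1d1 gene start in kb, with bar width equal to fragment length, black bars for contacts listed at all 4 timepoints, a dotted line at the lowest listed score of 5, and gene arrows in the lowest panel. The tallest black bar, inside Med24, reaches 18.84 at ZT12, and nearly all bars lie over Thra and Med24; the contact with Grb7 at 326.2 kb is outside the range drawn.

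Nr1d2 (ENSMUSG00000021775, minus strand, bait chr14:19067213-19072082, 4870 bp), the paralogue of Nr1d1, had little of this. Its single steady contact was the promoter fragment shared by Nkiras1, an inhibitor of NF-κB signalling, and Rpl15, a ribosomal protein gene (chr14:19100842-19107461, 34.5 kb away). It scored 5.85 (ZT0), 5.35 (ZT6), 6.01 (ZT12) and 7.9 (ZT18, or ZT12 in the summary order). The highest of these stood at percentile 61.6 of its list. A fragment in its own intron, 3.7 kb away, was listed at ZT0 (5.33) and ZT6 (5.22). The promoter of Ngly1 and Oxsm, 1988.7 kb away, was listed at ZT6 alone (5.58). No score of Nr1d2 reached 10. Nr1d2 was not listed with Thrb, whose gene ends 166 kb from it and starts 578 kb from its start.

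Thra (ENSMUSG00000058756, plus strand, gene chr11:98601952-98630320) runs head-on toward Nr1d1, and the gene records overlap by 1075 bp at their ends. Its bait (chr11:98599910-98602415, 2506 bp) lies 34.7 kb from the start of Nr1d1 and 11.2 kb from that of Med24, measured from gene start to gene start. Of its 15 contacts 13 lay on the gene-body side, but none inside Thra: they began at the Nr1d1 promoter and ran on beyond it. The strongest was instead behind it, with the Med24 promoter 10.5 kb away between midpoints, at 16.55 (ZT0), 12.87 (ZT6), 12.98 (ZT12) and 14.87 (ZT18). Most of this distance is the length of the Med24 bait, 17436 bp. The gap between the Thra and Med24 baits is only 0.5 kb, so this contact joins fragments that nearly adjoin. Pairs at a like distance were matched on midpoints and not on this gap. That pair was listed at all timepoints and its highest score, at ZT0 in either order, stood at percentile 95.7 of pairs at a like distance.

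The next fragment beyond the start of Nr1d1 (chr11:98636940-98643155, intergenic) gave the largest swing among steady Thra contacts. Its score with Thra was 8.38 (ZT0), 5.08 (ZT6), 7.5 (ZT12) and 10.47 (ZT18), which in the summary order reads 8.38, 7.5, 10.47 and 5.08. Highest over lowest was 2.06, close to the 95th percentile of 2.07 given above. The other steady contact was an exonic fragment of Casc3, which encodes a component of the exon junction complex, 93.4 kb away (chr11:98693900-98695253), at 6.39, 5.48, 8.0 and 5.66. Its highest score was at ZT12 (ZT6 in the summary order).

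Contacts of Thra at 1 timepoint only numbered 1, 2, 1 and 4 from ZT0 to ZT18 (the 4 being ZT12 contacts in the summary order). The 4 at ZT18 had scores from 5.54 to 6.89 and lay between 42.3 and 86.9 kb away, and 1 of them held the start of Gm12359. Those of other timepoints included the Psmd3 promoter at ZT0 (5.38, 56.7 kb) and a Casc3 exon at ZT6 (8.76, 90.1 kb). Thra and Nr1d1 thus each contacted stretches past the other, Thra toward Casc3 and Nr1d1 toward Csf3, while the pair that joins them directly stayed between 6.11 and 8.2.

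Med24 (ENSMUSG00000017210, minus strand, gene chr11:98565905-98590749) differed in the nature of its partners. Its bait (chr11:98581952-98599387) is 17436 bp long, against a median of 5861 bp, and all 13 of its contacts were with other baits. Over all pairs 15.4% joined 2 baits, and 2.86% of baits with 10 or more contacts had none but such contacts. The share was 40.0% for Nr1d1 (6 of 15), 26.7% for Thra (4 of 15), 66.7% for Nr1d2 (2 of 3) and 0 of 99 for Thrb. Of 624 baits of at least 15 kb with 10 or more contacts, 17 had all of them with baits, and their median share was 23.1%, against 21.1% over all baits with 10 or more. The part of bait length in the Med24 pattern was not tested.

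The contacts of Med24 were also strong, 7 of 13 reaching a score of 10, against 21.5% of all pairs. The share among pairs that join baits, as all of these do, was not computed. Its score with the Csf3 promoter was 13.14 (ZT0), 12.55 (ZT6), 14.88 (ZT12) and 19.83 (ZT18, or ZT12 in the summary order), the highest of any Med24 pair. With the SNORD124 fragment inside its own gene it was 18.69, 13.98, 16.6 and 17.28. With Gm12359, at 81.7 kb, it was 18.18, 18.2, 18.83 and 16.55, nearly level over the day. The promoters of Casc3 (12.68 to 15.63), of Msl1, a subunit of a histone acetyltransferase complex (11.52 to 13.62), and of Rapgefl1 (7.65 to 12.6) were likewise listed at all timepoints.

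The 6 Med24 contacts that were not steady were weaker, between 5.2 and 7.75. They were the promoters of Nr1d1 and Gsdma at 3 timepoints, the promoter of Gm12352 near Erbb2 at ZT0 and ZT12, and those of Pnmt and Tcap at ZT0 (7.37), Stard3 at ZT12 (5.23) and Gjd3 at ZT18 (5.65). The 7 contacts listed at ZT6 were the steady ones alone, and the low count of Med24 at ZT6 (ZT18 in the summary order) came from the absence of these weaker pairs.

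Between the promoters of Psmd3 and Rapgefl1, a stretch of 163 kb, lie 10 baits, and of the 45 possible pairs 30 were listed at any timepoint and 22 at all 4. From ZT0 to ZT18 the listed pairs numbered 28, 23, 28 and 27. The share of possible bait pairs listed in other stretches, at like distance, was not computed. These counts thus describe the locus and do not mark it as unusual. Nr1d1 was listed with Csf3, the SNORD124 fragment, Med24, Thra and Gm12359, but not with Psmd3, Msl1, Casc3 or Rapgefl1. Thra was listed with Psmd3, Med24, Nr1d1 and Gm12359, but not with Csf3, the SNORD124 fragment, Msl1, Casc3 or Rapgefl1. Med24 was listed with all but Psmd3.

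The listed pairs mostly ran across the facing genes Thra and Nr1d1, a split of the baits made after the values were seen. Of 25 pairs with 1 bait on the Psmd3-to-Thra side and 1 on the Nr1d1-to-Rapgefl1 side, 21 were listed, 17 of them at all timepoints. Of 10 pairs within the first side 6 were listed, 5 at all timepoints, and of 10 within the second side 3, none of them at all timepoints. Distance moves with this split, with medians of 94.8 kb across, 27.6 kb within the first side and 28.4 kb within the second. At under 60 kb, 2 of 3 pairs across, 6 of 10 within the first side and 3 of 9 within the second were listed, so the comparison at like distance rests on 3 pairs across.

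**Figure D4:**
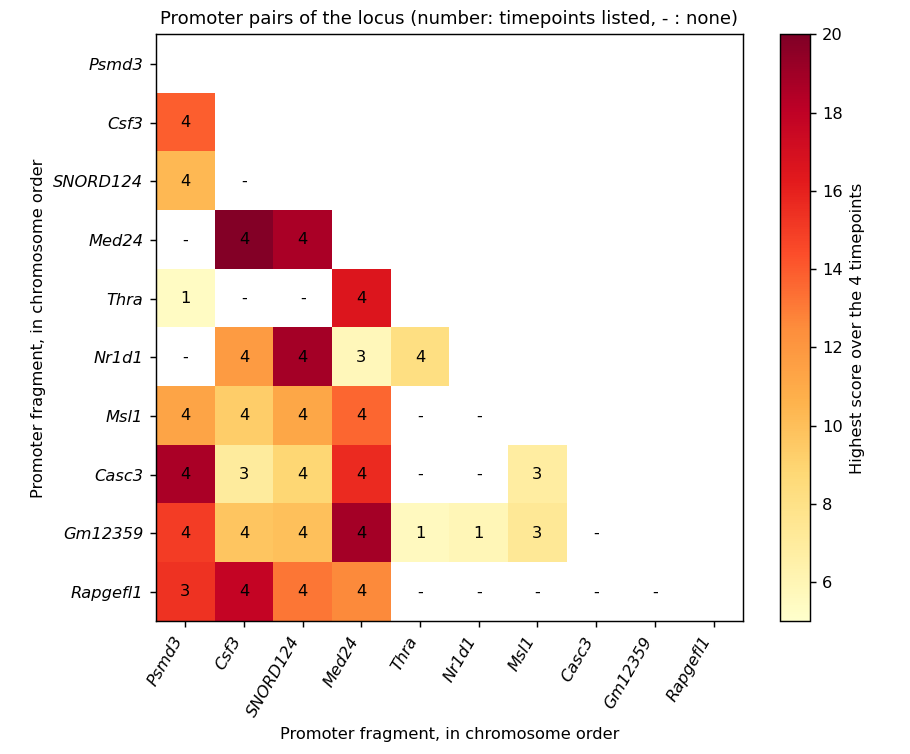
Pairs of the 10 promoter fragments from Psmd3 to Rapgefl1 in chromosome order, with colour for the highest score over the 4 timepoints and the number in each cell for the timepoints at which the pair was listed (a dash for none). The filled block at the lower left joins Psmd3, Csf3, SNORD124 and Med24 with the promoters beyond Nr1d1. The columns of Thra and Nr1d1 hold fewer and mostly paler cells than that of Med24.

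The promoters whose contacted fragments were most like those of Nr1d1 lay beside it. By the Jaccard index (shared fragments over all fragments contacted by either bait, from the union of the 4 lists), Msl1 came first at 0.43, with 12 shared fragments of 15 for Nr1d1 and 25 for Msl1. Casc3 followed at 0.42 with 11 shared, and Gm12359 at 0.33 with 10. Nr1d1 shared most of its partners with these promoters although it was not listed with Msl1 or Casc3 themselves. For Thra the most alike were SNORD124 (0.42, all 15 Thra fragments shared), Csf3 (0.36, 14 shared) and Msl1 (0.25, 8 shared). For Med24 they were Psmd3 (0.5, 11 shared), Grb7 (0.45, 9 shared) and a U6 small nuclear RNA gene (0.43, 6 shared). Nr1d2 had 1 promoter with 2 shared fragments, Ube2e2 (0.05), and Thrb had none. Nearly all of these baits lie in the same stretch of the chromosome as the member, and the likeness is a description with no test.

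Thrb (ENSMUSG00000021779, plus strand, gene chr14:18493474-18870602, 377 kb) stood apart in extent. Its bait (chr14:18491810-18495121, 3312 bp) had 99 contacts, 98 on the gene-body side and 96 inside the gene. Over all baits, 7.26% of contacts fell in a gene that starts on the bait. For 113 baits with 10 or more contacts whose gene spans at least 300 kb, the median share was 72.4%, and 23 of them had a share of at least the 97.0% of Thrb. Next to other long genes, the confinement of Thrb contacts to its gene was high but not singular.

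Within Thrb the contacts formed a near-continuous block in the introns. The nearest lay 35.1 kb from the bait, and between 35.1 and 313.1 kb 92 of 113 HindIII fragments were listed (81.4%), 67 of them at all timepoints. All of the steady contacts lay in this block. Only 5 of the 96 contacts inside the gene overlapped an exon, 4 lay in the gene beyond the block, and 3 fell outside the gene. When adjoining fragments were counted as 1 contact, the numbers at ZT0, ZT6, ZT12 and ZT18 were 19, 24, 21 and 26. ZT18 was thus last as listed and first when merged. In a near-continuous block, a fragment that drops out can split a run and raise the merged number. The merged numbers are therefore no ranking of the timepoints by contacts.

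**Figure D5:**
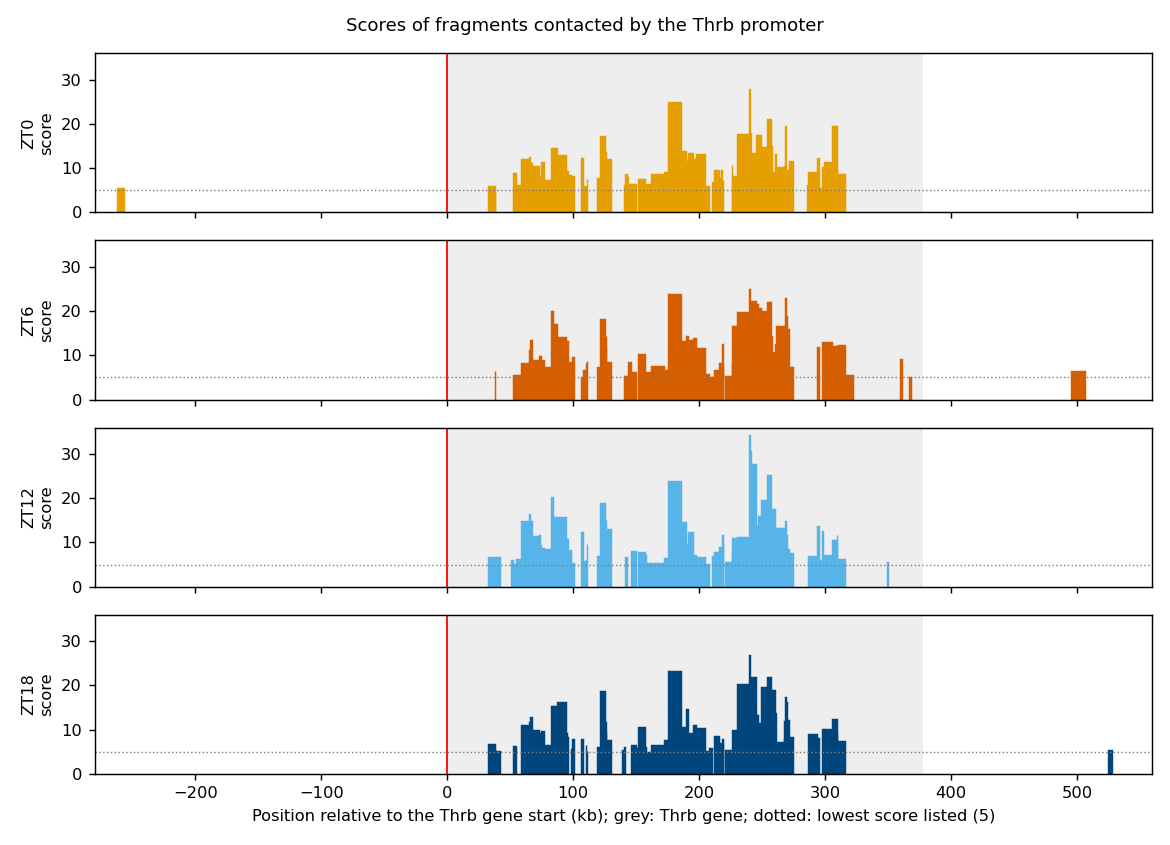
CHiCAGO score (vertical axis, one panel per timepoint) of each fragment contacted by the Thrb promoter against position relative to the Thrb gene start in kb, with bar width equal to fragment length, the gene shaded grey and a dotted line at the lowest listed score of 5. The profile keeps its shape over the timepoints, with contacts from 35.1 to 313.1 kb and the tallest bar, 34.22 at ZT12, 239.7 kb from the bait.

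The scores of Thrb were the highest of the 5 promoters. Of its contacts, 49 (49.5%) reached a score of 10, against the 21.5% of all pairs given above, and 10 reached 20. The peak lay 239.7 kb away (chr14:18732895-18733531), with 27.99 (ZT0), 24.98 (ZT6), 34.22 (ZT12) and 26.78 (ZT18). The fragments that follow it were also high, chr14:18733532-18735032 with 18.06, 21.2, 30.61 and 15.9, and chr14:18735033-18738371 with 13.36, 22.34, 27.81 and 21.96. All 3 were highest at ZT12 (ZT6 in the summary order). A second summit at 180.4 kb (chr14:18668800-18679021) was level, with 24.95, 23.97, 23.87 and 23.34.

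Over the 67 steady contacts of Thrb, the median score from ZT0 to ZT18 was 10.8, 12.1, 11 and 9.87. The highest score fell in the ZT0 list for 15, in the ZT6 list for 22, in the ZT12 list for 23 and in the ZT18 list for 7. The shares over all steady pairs were 22.2%, 26.2%, 25.6% and 26.0%. Fewer Thrb contacts than that peaked in the ZT18 list (ZT12 in the summary order), and with neighbouring fragments and 1 list per timepoint no error can be set on the difference. The median of highest over lowest score was 1.49, near the 1.44 over all steady pairs. The 15 contacts seen at 1 timepoint were weak, with scores from 5.06 to 9.18 and a median of 5.9, against a median highest score of 13.2 for the steady ones.

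The steadiness of Thrb exceeded that of most baits with as many contacts. Among the 265 baits with 80 or more contacts the median share listed at all timepoints was 45.7%, and 23 had a share at least that of Thrb (67.7%). Among 4263 baits with 10 to 20 contacts the median was 25%, close to the 26.7% of Nr1d1 and Thra. Of the 265, 11 had no contact with a bait, as Thrb had none.

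Genes that act with the members varied widely. Of 16 other clock genes 15 started on a bait, with a median of 20 contacts (1 to 149) against 9 over all baits and 39.7% of contacts at all timepoints against 33.1%. That share rests on Bhlhe40 and Hlf, the clock genes with most contacts: without them it was 27.9% (67 of 240 contacts of 13 baits). The 33.1% was not trimmed in this way. Baits with 80 or more contacts had a higher median share (45.7%) than those with 10 to 20 (25%), so the trimmed share is not set against it. From ZT0 to ZT18, 3, 5, 5 and 2 of the 15 had most contacts at that time. Over all baits the shares were 14.6%, 21.7%, 17.9% and 18.1%, with ties for 27.7%, and 15 baits are too few to tell apart from these. Among these, the D-box factors Dbp and Hlf had 37 contacts (11, 25, 24 and 19) and 115 contacts (68, 85, 95 and 79). Dbp thus had most contacts in the ZT6 list, as Nr1d1 did, and Hlf in the ZT12 list (ZT18 and ZT6 in the summary order).

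Of 6 corepressor genes 5 started on a bait, with a median of 12 contacts and 29.0% at all timepoints, or 17.4% (4 of 23 contacts of 3 baits) without Tbl1xr1 and Ncor1, which had most contacts. Ncor1, which encodes the corepressor that REV-ERBα and unliganded thyroid hormone receptors recruit, had 33 contacts (22, 24, 16 and 12 from ZT0 to ZT18). Hdac3, the deacetylase of the same complex, had 8. Of 5 such baits 2 had most contacts at ZT6 and the other 3 had ties, against 21.7% and 27.7% of all baits.

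All 11 genes of thyroid hormone action started on a bait, with a median of 17 contacts and 35.5% at all timepoints. Without Ncoa2 and Rxra, which had most contacts, the share rose to 38.2%. Rxra, the dimerisation partner of thyroid hormone receptors, had 46 contacts (33, 35, 38 and 38), 27 of them steady. The coactivator gene Ncoa2 had 74 (33, 60, 34 and 23), the surplus lying at ZT6 (ZT18 in the summary order), and Dio1, the hepatic deiodinase, had 7. Of the 11, 3 had most contacts at ZT6, 2 at ZT12, 3 at ZT18 and 3 had ties. The shares over all baits were 21.7%, 17.9%, 18.1% and 27.7% in the same order.

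Of 29 Mediator genes other than Med24, 27 started on a bait, with a median of 9 contacts and 29.4% at all timepoints. Without Med19 and Med11, which had most contacts, the share was 28.6%. Med24, with 13 contacts and 53.8% of them steady, was not alone in this: 11 of 20 contacts were steady for Med23 (55%) and 14 of 27 for Med20 (51.9%). Med1, the subunit that binds nuclear receptors, had 3 contacts, none of them steady. Of 24 neighbours of the members, 22 started on a bait (20 baits), with a median of 16.5 contacts and 34.7% at all timepoints. Without Csf3 and Ube2e2, which had most contacts, the share rose to 36.7%. Among the paralogous neighbours, the retinoic acid receptor genes Rara and Rarb had 13 and 4 contacts, and the topoisomerase genes Top2a and Top2b had 12 and 25. Unlike Thra and Thrb, with 15 and 99, these pairs did not all have more contacts on chromosome 14. No member was listed with Rara, Rarb, Top2a or Top2b.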

How the data were processed

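Per the labels and the study's methods, reads of HindIII P-CHi-C libraries were mapped to mm9 and filtered with HiCUP, and the authors then pooled the libraries of each timepoint and called pairs with CHiCAGO. The deposited column holds CHiCAGO scores, weighted p-values on a transformed scale, listed from a score of 5. From ZT0 to ZT18 the lists held 146262, 154775, 151529 and 151347 pairs, and the read depth behind them was not analysed here.

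Python 3.11.15 was used with numpy 2.4.6 and pandas 2.3.3 for the lists, pysam 0.24.0 for sequence and scipy 1.17.1 for intervals. The mm9 genome was cut at HindIII sites, and 129886 of 129887 listed fragments matched the map. Gene starts and exons came from GENCODE vM1. A contact of a promoter is a distinct fragment paired with its bait in either direction, and distance is between midpoints. Shares have 95% Wilson intervals, which cover counting error only. The counting steps were tested on 200 simulated baits.

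The members and lists were chosen with earlier results of these data known. Genes named are the members, genes starting on contacted fragments, genes whose exons a contact overlaps at 2 or more timepoints or with a score of 7, the 3 most alike baits, and the lists of clock, corepressor, thyroid hormone, Mediator and neighbouring genes. Other genes at a contact were named after their values were seen. Alternatives were scores of at least 7 or 10, lists of equal length, merged adjoining fragments, any transcript start, a 10 kb tolerance and the summary order of timepoints.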

Additional observations from a re-analysis of the deposited data

How the results depend on the processing

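No paired analysis was possible because merging of pools came before the calling of pairs, and for the same reason no replicate could be left out. Times of the most contacts or of the highest score are given in h of zeitgeber time. At a score of at least 7, Nr1d1 had 4 contacts at ZT6, 4 at ZT12 and 2 at ZT18, with most at 0, 6 and 12 h alike. Nr1d2 had 0 at ZT0, ZT6 and ZT12, with most at 18 h and 0.0% listed at all timepoints. Thra had 3 at ZT0, 2 at ZT6 and 2 at ZT18, with most at 12 h, and Med24 had most at 12 h. At a score of at least 10, at ZT0, ZT6, ZT12 and ZT18 in turn, Nr1d1 had 1, 1, 2 and 1 contacts (most at 12 h, 100% with baits), Nr1d2 had 0 at each (no time ahead), Thra had 1, 1, 1 and 2 (median distance 24.7 kb), Thrb had 38, 41, 37 and 32 (most at 6 h, median distance 226 kb), and Med24 had 6 at ZT0 and 6 at ZT12 (most at 18 h). Median contacts at that score were 3 for clock, 1 for corepressor, 1 for thyroid hormone, 1 for Mediator and 2 for neighbouring genes. Of contacts reaching 10 at any timepoint, 100% were listed at all timepoints for Nr1d1, Thra, Thrb and Med24. These were 2 contacts for Nr1d1 (both with baits), 2 for Thra, 49 for Thrb and 7 for Med24. The same share over all pairs reaching 10 was not computed, so this is not given as a trait of the members. With a tolerance of 10 kb the share of all contacts was 86.7% for Nr1d1, 80% for Thra, 93.9% for Thrb and, unmoved, 53.8% for Med24. No share over all pairs was computed with this tolerance. With adjoining fragments merged, Thra had 5 contacts at ZT0 and 5 at ZT6, and Thrb had 19, 24, 21 and 26. With any transcript start, which adds the SNORD124 fragment, Med24 had 36, 31, 35 and 36. In the summary order of timepoints, Nr1d2 had 1 contact at ZT6 and 3 at ZT18, Thra had 10 at ZT12, Med24 had 11 at ZT6, most contacts fell at 18 h for Nr1d1 and Nr1d2, at 12 h for Thra and at 0 and 6 h alike for Med24. The highest score then fell at 6 h for Nr1d1 and Thrb and at 12 h for Nr1d2 and Med24. Divided by the list totals, Med24 had most contacts at 0 h, as did the medians of corepressor and Mediator genes. With lists of equal length all counts stayed within 1.5 times and all shares within the 95% interval of the value as listed (for Thra, 7 contacts at ZT6 and 20% steady), with the gap between fragments distances shifted by less than their spread (for Nr1d2, to 28.8 kb), and baits of the same timepoint and score percentiles changed no share beyond its interval and no time of the highest score. The share of the gene lists without their 2 largest baits was added after seeing the data. The cause of these changes was not tested, except that a higher minimum leaves fewer pairs.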
